A study of Mus musculus with 22 samples.

Results

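The genes described here are 36 genes of glycolysis and of the response to low oxygen, followed in the mRNA and the ribosome footprints of cultured mouse neural stem cells (NSCs). They were taken as a list of symbols from the tables of coding footprints and joined to the RNA-Seq tables by Ensembl identifier. All 36 were among the 23081 genes with footprint values and the 22623 genes with RNA values. Of these, 31 had RNA reads and all 36 had footprint reads. Gapdh, Pgk1, Pgam1, Eno1 and Ldha were listed with 0 reads in all 14 RNA libraries although their footprints were abundant, so their mRNA was not described. In all, 138 genes of the series had no RNA read and more than 1000 footprint reads.

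Glycolysis splits glucose into pyruvate, and lactate dehydrogenase turns pyruvate into lactate, which monocarboxylate transporters carry out of the cell. The transcription factors HIF1A and HIF2A (gene Epas1) are made continuously and destroyed when oxygen is present, because prolyl hydroxylases such as EGLN1 and EGLN3 mark them for degradation. In low oxygen they accumulate and bind the core sequences ACGTG or GCGTG near genes of glucose uptake, glycolysis, pH control, mitophagy and blood vessel growth. Embryonic neural stem cells are known for high glycolytic activity.

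NSCs were grown from brains of mouse embryos at day E12.5 or E13.5, on coated dishes with EGF and bFGF. The tet lines all carried m2rTTA in the Rosa26 locus. KH2 cells carried no Musashi cDNA, MSI1 cells carried an inducible Msi1 cDNA in the Col1A1 locus, and MSI2 cells carried an Msi2 cDNA there. Each tet line was kept without Dox or with 1 µg/ml Dox for 72 h at E12.5, and at E13.5 there were KH2 cells without Dox and MSI1 cells without and with it. The floxed lines C1 and C4 both carried floxed alleles of Msi1 and of Msi2 and came from E12.5. C4 also carried CreER, C1 did not, and both were kept without or with 4-OHT, the active form of tamoxifen, for 48 h. RNA-Seq covered all of these cells, and Ribo-Seq covered KH2, MSI1, C1 and C4 cells of E12.5. Every condition had 1 library, other than a technical replicate of untreated MSI1 cells of E13.5 that was summed with its partner. Repeats were therefore lines or stages, and the labels do not say how many cultures or embryos each line stands for.

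The 14 RNA libraries held 7889966 to 58435172 counted reads and the 8 Ribo libraries 657288 to 6381242. The RNA reads counted were 14.85 to 15.75% of the reads behind the deposited RPKM values in the 6 tet RNA libraries of E12.5 and 28.17 to 34.13% in the other 8. The 10 leading genes took 77.58% of the footprint reads in untreated KH2 cells, against 5.97 to 7.45% in the floxed cells. Msi1 mRNA rose with Dox in MSI1 cells (19.7 to 108 RPKM at E12.5) and Msi2 in MSI2 cells (23.2 to 128 RPKM), as labelled. In C4 cells 4-OHT lowered Msi2 from 39.5 to 4.54 RPKM, whereas Msi1 was at 9.46 and 9.42 RPKM, and the part of Msi1 that Cre removes is not given in the sources used here. Neural stem cell markers summed to 12024 to 16175 scaled RPKM in the tet cells of E12.5, 14799 to 17082 at E13.5 and 15053 to 16317 in the floxed cells, over 9 of 12 genes, a sum set by the most abundant of them. Gene by gene, 4 of 9 were lower and 2 higher at E13.5, and 5 of 9 were lower and 1 higher in the mRNA of floxed cells (median log2 change -1.03). Microglia and endothelium markers did not reach 1 in any library (at most 0.353 and 0.539).

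The mRNA of most members fell into a high set and a low set of libraries, and the division ran between the tet cells of E12.5 and all others. Of the 31 members with RNA reads, 21 were higher in every one of the 6 tet libraries of E12.5, with or without Dox, than in all 7 other libraries, and 0 were lower in every one. The higher order held for 13.49% of all genes tested (1692 of 12546). In footprints, 27 of 36 members were higher in all 4 tet libraries than in all 4 floxed ones, against 17.1% of all genes, and only Slc16a1 was lower in all 4. This division was chosen after the values were seen. Levels below are scaled RPKM, that is deposited read counts per kilobase of exon, with library sizes scaled by TMM over all libraries of an assay. The exon length was that behind the deposited RPKM for mRNA, and the union of the listed coding exons for footprints. For Slc2a3, Tpi1, Pfkp and Hif1a that union was shorter than the length behind the deposited footprint RPKM, which raises their footprint levels. For E13.5 levels are given in the order KH2, MSI1 and MSI1 with Dox, and for the floxed cells in the order C1, C1 with 4-OHT, C4 and C4 with 4-OHT.

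**Figure D1:**
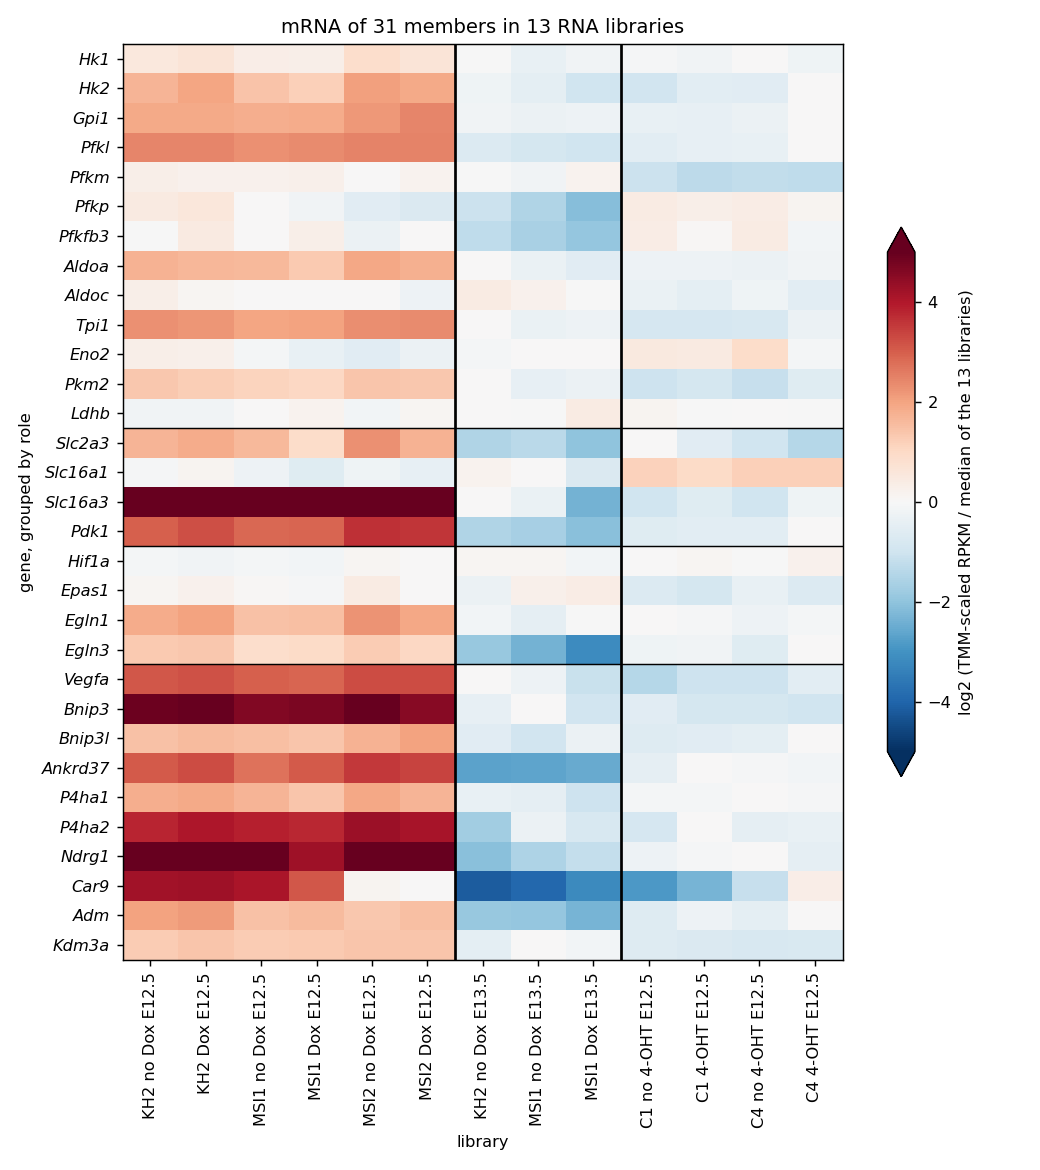
Each row is 1 of the 31 members with RNA reads and each column 1 RNA library. Colour gives the log2 ratio of the TMM-scaled RPKM to the gene's median over the 13 libraries, and vertical lines part tet E12.5, tet E13.5 and floxed cells. Most rows are red in the first 6 columns, while Hif1a and Ldhb are nearly white throughout and Slc16a1 is red in the floxed columns.

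Of the 13 glycolytic enzymes with RNA reads, 7 stood higher in all 6 tet libraries of E12.5 than in any other library, namely Hk1, Hk2, Gpi1, Pfkl, Aldoa, Tpi1 and Pkm2. The mRNA level of Hk1, the hexokinase of most adult tissues, was 196 to 297 (median 241) in the tet cells of E12.5, against 159, 125 and 142 at E13.5 and 153, 141, 160.1 and 138 in the floxed cells. In the tet cells of E12.5 Hk2, a hexokinase known as an inducible HIF target, had 48.2 to 89.5 scaled RPKM (median 73.9), whereas the E13.5 cells had 18.5, 15.3 and 10.7 and the floxed cells 10.9, 14.8, 14.6 and 21.4. On this scale both hexokinases were higher in every tet library of E12.5, Hk2 by the larger ratio, while scaling to the reads behind the deposited RPKM turned Hk1 around. For Pfkp, a phosphofructokinase subunit, the range was 54.8 to 133 (median 84.8) in tet cells of E12.5, with 43.2, 31.7 and 20.4 at E13.5 and 121, 110.2, 117 and 97.7 in the floxed cells. Pfkp did not follow the division, since its tet values of E12.5 overlapped those of the floxed cells and the E13.5 cells were lowest. The other phosphofructokinase subunit Pfkl did follow it, with 592 to 676 in the tet cells of E12.5 and at most 123 elsewhere. Aldoa, the aldolase of muscle and most cells, stood at 2665 to 4179.6 (median 3554) in the tet cells of E12.5, at 1085, 865 and 736 in those of E13.5 and at 913, 902, 887 and 966 in the floxed cells. The mRNA level of Aldoc, the brain aldolase, was 723 to 1076 (median 885) in the tet cells of E12.5, against 1139, 1015 and 854 at E13.5 and 699, 616, 748 and 611 in the floxed cells. The 2 aldolases thus differed, since Aldoc overlapped between the tet cells of both stages. In the tet cells of E12.5 Pkm2, pyruvate kinase, the last step to pyruvate, had 2257 to 2830.4 scaled RPKM (median 2647), whereas the E13.5 cells had 1089, 825 and 878 and the floxed cells 535, 594, 487 and 708. Gpi1, phosphoglucose isomerase, and Tpi1, triosephosphate isomerase, were higher in every tet library of E12.5 (lowest 1788 and 2335) than in any other (highest 509.5 and 592). For Ldhb, the lactate dehydrogenase subunit of oxidative tissues, the range was 332 to 429.7 (median 359) in tet cells of E12.5, with 381, 372 and 495 at E13.5 and 419, 369, 378 and 369.9 in the floxed cells. Ldhb overlapped between all 3 sets. Pfkm, the muscle subunit of phosphofructokinase, had 230.3 to 279 in tet cells of E12.5, 230.0, 204 and 258 at E13.5 and 108, 93.9, 99.5 and 96.3 in the floxed cells. Its floxed values were thus the lowest. Pfkfb3, which makes the activator of phosphofructokinase, had 48.4 to 80.1, then 24.1, 19.0 and 15.4, then 76.9, 60.5, 77.9 and 53.7, lowest at E13.5. Eno2, the neuronal enolase, was low everywhere, at 5.70 to 15.7.

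The glucose and lactate transporters and Pdk1 differed more. Slc2a3, the neuronal glucose transporter GLUT3, stood at 95.8 to 246 (median 165) in the tet cells of E12.5, at 17.6, 19.9 and 12.54 in those of E13.5 and at 50.4, 34.1, 25.6 and 18.7 in the floxed cells. The mRNA level of Slc16a3, the lactate exporter MCT4, was 171 to 309.6 (median 264) in the tet cells of E12.5, against 5.13, 4.03 and 1.01 at E13.5 and 2.59, 3.33, 2.56 and 4.41 in the floxed cells. Slc16a3 had the larger gap, with no other library above 5.13. In the tet cells of E12.5 Slc16a1, the monocarboxylate transporter MCT1, had 46.6 to 77.7 scaled RPKM (median 60.4), whereas the E13.5 cells had 80.7, 71.2 and 43.4 and the floxed cells 159, 139, 162 and 161. Slc16a1 went the other way, highest in the 4 floxed libraries. For Pdk1, the kinase that closes the entry of pyruvate into mitochondria, the range was 267 to 465 (median 318) in tet cells of E12.5, with 12.96, 11.6 and 8.60 at E13.5 and 23.9, 25.4, 25.6 and 36.7 in the floxed cells. Pdk1 was higher in every tet library of E12.5, and its E13.5 values were all under the floxed ones.

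The regulators of the pathway split by kind. Hif1a stood at 153 to 188 (median 162) in the tet cells of E12.5, at 186, 184 and 159.8 in those of E13.5 and at 175, 185, 174 and 199 in the floxed cells. The mRNA level of Epas1, HIF2A, was 14.3 to 19.9 (median 15.8) in the tet cells of E12.5, against 12.2, 18.0 and 19.4 at E13.5 and 9.24, 8.12, 11.6 and 9.32 in the floxed cells. The mRNA of Hif1a overlapped between the sets, and that of Epas1 was lowest in the floxed cells. In the tet cells of E12.5 Egln1, the main HIF prolyl hydroxylase, had 339.8 to 597 scaled RPKM (median 459.7), whereas the E13.5 cells had 114, 90.2 and 122 and the floxed cells 125, 119, 105 and 115. For Egln3, a hydroxylase that is itself a HIF target, the range was 144 to 196 (median 173) in tet cells of E12.5, with 20.6, 15.1 and 8.83 at E13.5 and 66.2, 69.2, 51.0 and 77.6 in the floxed cells. Both hydroxylases were higher in all 6 tet libraries of E12.5, and Egln3 was lowest at E13.5.

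The remaining hypoxia response genes held the widest ranges. Vegfa, the vascular growth factor, stood at 1277 to 1637 (median 1494) in the tet cells of E12.5, at 169, 140.4 and 77.7 in those of E13.5 and at 63.4, 82.5, 82.1 and 117 in the floxed cells. The exon length behind the Vegfa values was only 35 nt in RNA-Seq and 49 nt in Ribo-Seq, so its levels per kilobase rest on a short stretch. The mRNA level of Bnip3, a mitophagy receptor, was 343 to 469 (median 413) in the tet cells of E12.5, against 11.04, 14.7 and 7.51 at E13.5 and 9.86, 7.90, 7.97 and 7.43 in the floxed cells. In the tet cells of E12.5 Ankrd37, an ankyrin repeat protein known as a HIF target, had 49.8 to 86.8 scaled RPKM (median 67.0), whereas the E13.5 cells had 1.18, 1.20 and 1.33 and the floxed cells 5.47, 7.50, 7.20 and 6.77. Neither Bnip3 nor Ankrd37 overlapped between the tet cells of E12.5 and the rest. For P4ha1, a subunit of collagen prolyl hydroxylase, the range was 268 to 385 (median 342) in tet cells of E12.5, with 77.3, 74.9 and 49.3 at E13.5 and 93.5, 94.2, 101 and 96.7 in the floxed cells. Ndrg1, a stress-responsive gene, stood at 53.7 to 181 (median 117) in the tet cells of E12.5, at 0.662, 0.977 and 1.25 in those of E13.5 and at 2.41, 2.70, 2.85 and 2.09 in the floxed cells. The mRNA level of Adm, the vasodilator peptide adrenomedullin, was 81.3 to 139.8 (median 93.4) in the tet cells of E12.5, against 8.53, 8.41 and 6.39 at E13.5 and 20.6, 26.8, 22.9 and 32.0 in the floxed cells. All 3 were higher in each tet library of E12.5 than in any other. In the tet cells of E12.5 Kdm3a, a histone demethylase, had 223 to 246 scaled RPKM (median 237), whereas the E13.5 cells had 66.1, 93.5 and 85.9 and the floxed cells 59.8, 57.4, 53.4 and 55.6. For Car9, the cell surface carbonic anhydrase IX, the range was 1.86 to 34.9 (median 23.9) in tet cells of E12.5, with 0.105, 0.121 and 0.205 at E13.5 and 0.256, 0.376, 0.835 and 2.32 in the floxed cells. Kdm3a followed the division, whereas Car9 did not, because both MSI2 libraries stayed at 2.05 and 1.86 while KH2 and MSI1 cells had 16.1 to 34.9. Bnip3l and P4ha2 were also higher in all 6 tet libraries of E12.5 (at least 51.8 and 28.1) than elsewhere (at most 19.7 and 2.06). In the NCBIM37 annotation Bnip3 lies at chr7:146082519-146101202, Slc16a3 at chr11:120809794-120822182, Ndrg1 at chr15:66760883-66801202, Pdk1 at chr2:71711281-71741915 and Car9 at chr4:43519838-43526601, and the deposited counts cover their coding exons.

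**Figure D2:**
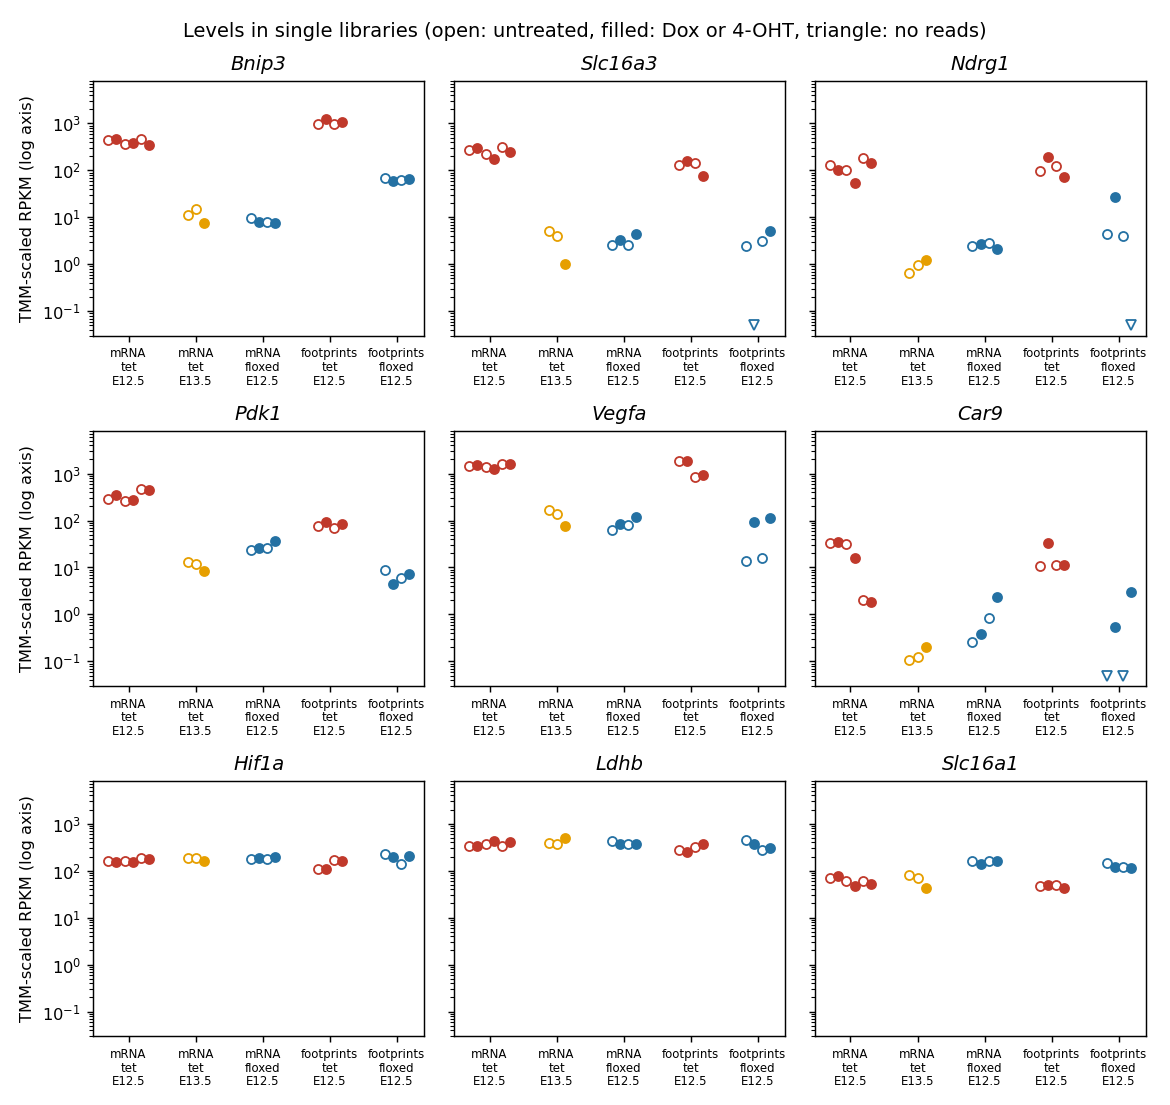
Each point is 1 library, with TMM-scaled RPKM on a log axis for mRNA and footprints of 9 members. Open points are untreated, filled points had Dox or 4-OHT, and triangles mark libraries with no reads. Bnip3, Slc16a3, Ndrg1, Pdk1 and Vegfa lie well above the other sets in the tet cells of E12.5, Car9 does so in KH2 and MSI1 cells alone, and Hif1a and Ldhb lie at similar levels in all sets.

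The promoters of these genes were searched for the core ACGTG or GCGTG on both strands, so that CACGTG counts on each strand, in the 250 bases before and 50 after each RefSeq start site (GRCm38.p6). Of the 36 members, 32 had a promoter in the table, and 29 of these, or 90.6%, held a core in at least 1 promoter, against 46.7% of all genes and 43.8% of all single promoters. Slc2a3, Epas1, Bnip3l and Ndrg1 had none in the table. Among cores whose window, with 15 bases of context on each side, lay wholly before the start site, the nearest is shown in capitals for 5 members with large mRNA differences and then for 2 members whose mRNA did not stand higher in the tet cells of E12.5. They lie 35 bases before the start of Bnip3 (chr7:138909522-138909556, minus strand), 27 bases before the start of Slc16a3 (chr11:120949025-120949059, plus strand), 152 bases before the start of Ankrd37 (chr8:45999983-46000017, minus strand), 78 bases before the start of Pdk1 (chr2:71873131-71873165, plus strand), 69 bases before the start of P4ha2 (chr11:54100840-54100874, plus strand), 126 bases before the start of Ldhb (chr6:142508064-142508098, minus strand), 134 bases before the start of Slc16a1 (chr3:104638515-104638549, plus strand). All are written along the gene's own strand, and the capitals mark that 1 core, even where a core on the other strand overlaps it. The Slc16a3 window holds another ACGTG, in lower case, closer to the start site.
Bnip3: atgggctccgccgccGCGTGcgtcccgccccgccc
Slc16a3: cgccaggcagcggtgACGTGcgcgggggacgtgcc
Ankrd37: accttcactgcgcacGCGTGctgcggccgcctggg
Pdk1: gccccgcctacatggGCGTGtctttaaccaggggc
P4ha2: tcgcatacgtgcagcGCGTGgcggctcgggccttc
Ldhb: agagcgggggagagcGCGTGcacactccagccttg
Slc16a1: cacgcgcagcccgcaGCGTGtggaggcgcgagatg
Both kinds of member held such cores, and a match is only a match of letters.

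The difference between stages was tested in untreated KH2 and MSI1 cells with edgeR's quasi-likelihood test on counts, with line as a block and Benjamini-Hochberg adjustment over all genes. At E13.5, 25 of 31 members were lower and 0 higher, while 25.2% of the 11893 genes tested were lower and 25.6% higher. The members' median log2 change was -2.11, against 0.01 over all genes. All 10 of the other hypoxia response genes fell, with 3 of 4 transporters and Pdk1, 2 of 4 HIF factors and hydroxylases, and 10 of 13 glycolytic enzymes. Ndrg1 was 132-fold lower (log2 change -7.04 ± 0.21 SE, adjusted p = 5.44e-09). Slc16a3 was 55.4-fold lower (log2 change -5.79 ± 0.13 SE, adjusted p = 2.07e-09). Bnip3 fell to 4.28 from 135 CPM and was 30.8-fold lower (log2 change -4.94 ± 0.18 SE, adjusted p = 1.76e-08). Further falls of at least 8.54-fold were those of Car9, Ankrd37, P4ha2, Pdk1, Adm, Egln3, Vegfa, Pfkl and Slc2a3. The other falls, of Tpi1, Bnip3l, P4ha1, Gpi1, Egln1, Hk2, Aldoa, Kdm3a, Pfkp, Pfkfb3, Pkm2 and Hk1, had log2 changes of -2.31 to -0.64. Car9 rested on 2 and 5 reads at E13.5, Ankrd37 on 11 and 24, Ndrg1 on 11 and 35 and P4ha2 on 18 and 105. These genes reached 1 CPM in fewer than 2 libraries of E13.5, so they passed the filter only through the E12.5 libraries. With such low values they could be called lower or go untested, and they count among the 25 of 31. Within glycolysis, Pfkl was 8.84-fold lower (log2 change -3.14 ± 0.11 SE, adjusted p = 1.52e-08), and Pfkm, with the smallest fall that passed, was 1.27-fold lower (log2 change -0.35 ± 0.10 SE, adjusted p = 0.016), a change that turned to 0.62 on the scale of the deposited RPKM. Hif1a (log2 change 0.17 ± 0.12 SE, adjusted p = 0.25), Epas1, Ldhb, Aldoc, Slc16a1 and Eno2 did not pass.

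With the same test (edgeR), untreated floxed cells were compared with untreated tet cells of E12.5, C1 and C4 against KH2, MSI1 and MSI2. The tet libraries of KH2 and MSI1 also served in the comparison of stages, so the comparisons are not independent. In the floxed cells 25 of 31 members were lower and 3 higher. Over all 12211 genes 33.3% were lower and 33.0% higher, so most genes differed, with the directions balanced. The members' median log2 change was -2.14, against 0.00459 over all genes. Slc16a3 was 105-fold lower (log2 change -6.71 ± 0.20 SE, adjusted p = 1e-05). Bnip3 was 47.3-fold lower (log2 change -5.56 ± 0.19 SE, adjusted p = 1.54e-05), and Ndrg1 was 52.6-fold lower (log2 change -5.72 ± 0.31 SE, adjusted p = 3.18e-05). Tpi1 was 8.20-fold lower (log2 change -3.04 ± 0.14 SE, adjusted p = 2.38e-05), the largest fall among the glycolytic enzymes. Car9, P4ha2, Vegfa, Pdk1, Ankrd37, Pfkl, Hk2 and Pkm2 had log2 changes of -5.42 to -2.38, of which Car9 had a wide SE (1.26), with MSI2 far under KH2 and MSI1. Car9 was also under 1 CPM in untreated C1 and C4 cells (10 and 26 reads), so it passed the filter only through the tet libraries. Gpi1, Slc2a3, Adm, Bnip3l, Aldoa, Kdm3a, Egln1, P4ha1, Egln3, Pfkm, Epas1, Hk1 and Aldoc followed with -2.31 to -0.40. The 3 that rose were Slc16a1, 2.53-fold higher (log2 change 1.34 ± 0.09 SE, adjusted p = 6.29e-05), Eno2, 1.73-fold higher (log2 change 0.79 ± 0.29 SE, adjusted p = 0.0463), and Pfkfb3, 1.40-fold higher (log2 change 0.48 ± 0.12 SE, adjusted p = 0.0109). Hif1a (log2 change 0.03 ± 0.11 SE, adjusted p = 0.842), Ldhb and Pfkp did not pass. Eno2 lost its call without C1, C4, MSI1 or MSI2 (1.02, 0.59, 0.77 and 0.61), Hk1 and Aldoc without C1 or C4 (Hk1 at -0.58 and -0.65, Aldoc at -0.32 and -0.42), Pfkfb3 without C4 (0.50), and Epas1 and Car9 without C1 (-0.54 and -4.73). Without C4 Car9 was at -6.41.

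In both comparisons of mRNA the tet libraries of E12.5, with a counted share of 14.85 to 15.75%, stood against libraries with 28.17 to 34.13%, so stage, kind of line and that share cannot be told apart. The labels name no batch, and within the libraries of high share alone neither comparison can be made. Scaling to the reads behind the deposited RPKM, an alternative chosen after seeing the data, moved the median of all genes by 0.97 and 1.09 on the log2 scale for stage and line. On that scale 23 members were lower and 8 higher at E13.5, and 21 were lower and 8 higher in the floxed cells. The shares of all genes lower and higher on that scale are not given here. Hk1 turned to higher in both comparisons, Pfkm in that of stage, and Aldoc and Epas1 in that of line. As these are bulk samples, fewer cells of a type and less RNA per cell cannot be told apart. Astrocyte markers, 4 of 4 measured, summed to 416 to 878 in the tet cells of E12.5, 641 to 810.4 at E13.5 and 854 to 1224 in the floxed cells. Of these, 3 of 4 were higher in floxed cells (median log2 change 2.39), and at E13.5 2 were higher and 1 lower. Neuron markers, 6 of 8, summed to 52.2 to 72.0, 67.4 to 80.7 and 77.6 to 95.1, and oligodendrocyte lineage markers, 5 of 7, to 1619 to 2174, 2202 to 3249 and 1858 to 2640.1. Their part in the result was not tested.

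**Figure D3:**
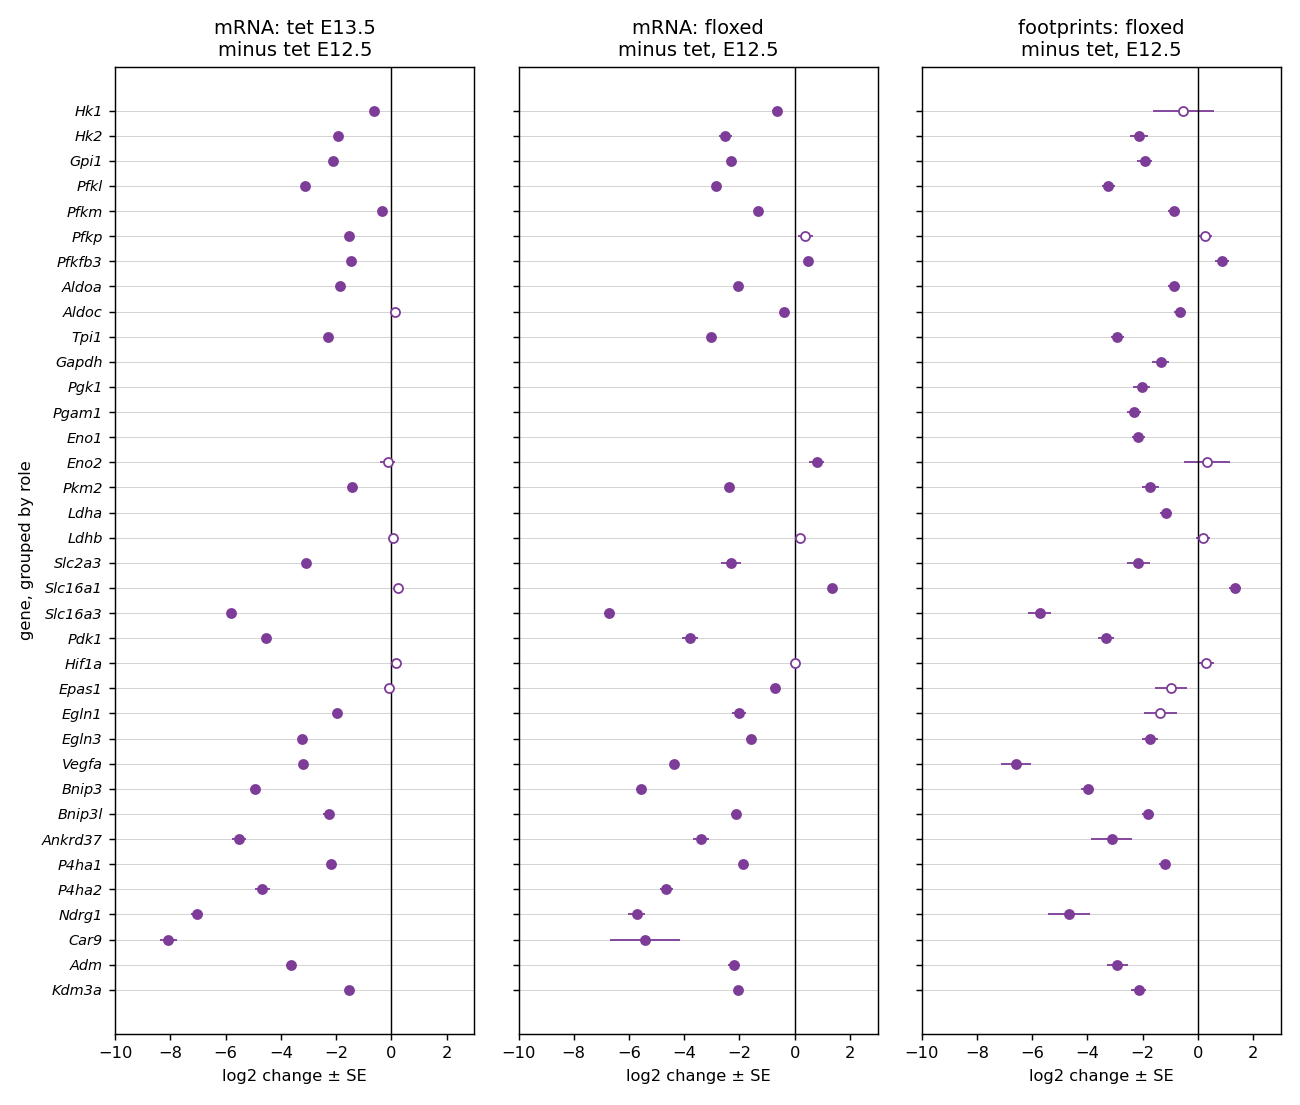
Each row is a member and each panel a comparison, with the log2 change and its SE on the x axis. Filled points passed an adjusted p of 0.05 and open points did not, a missing point was not tested, and Car9 footprints, with no read in the untreated floxed libraries, are left out. Most filled points lie left of 0 in all 3 panels, and Slc16a1 lies right of 0 in both comparisons of floxed cells.

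Footprints, counted in other libraries of the E12.5 lines, gave another measure of the line difference and the only one for the 5 enzymes without RNA reads. In the floxed cells 26 of 35 members were lower and 2 higher, while 15.5% of the 12097 genes tested were lower and 16.1% higher. P4ha2, with 6 footprint reads over all 8 libraries, was not tested. The members' median log2 change was -1.82, against 0.03 over all genes. Levels follow in the order KH2, KH2 with Dox, MSI1 and MSI1 with Dox. Footprints of Gapdh, glyceraldehyde phosphate dehydrogenase, stood at 4143, 4854, 4100.0 and 3998 in the tet cells and 1716, 1725, 1779 and 2427 in the floxed cells. It was 2.54-fold lower (log2 change -1.34 ± 0.31 SE, adjusted p = 0.00647) in the untreated floxed cells by edgeR's test, but not past the threshold without MSI1 cells (-1.34) and at 0.089 on the scale of the deposited RPKM. Pgk1, the first ATP-yielding step, had footprint levels of 2644, 2889, 2721 and 2874 in the tet cells and 768, 746, 633 and 984 in the floxed cells. Its change was 4.11-fold downwards (log2 change -2.04 ± 0.31 SE, adjusted p = 0.00052). Eno1 footprints, counted over 181 nt, were at 4419, 4526, 4798 and 4659.9 in the tet cells and 982, 1229, 1221 and 1903 in the floxed cells. The fall was 4.50-fold (log2 change -2.17 ± 0.24 SE, adjusted p = 6.61e-05). Ldha, counted over 118 nt, had 1594, 1851, 1486 and 1258 in the tet cells and 730.2, 1081, 747 and 1008 in the floxed cells, and was 2.24-fold lower (log2 change -1.16 ± 0.21 SE, adjusted p = 0.00156), but at 0.27 on the scale of the deposited RPKM. Not 1 of these 4 enzymes overlapped between the tet and the floxed libraries, treated ones included. Pgam1, a phosphoglycerate mutase, stood at 2312, 2475, 2462 and 1968 in the tet cells and 528, 523, 499 and 662 in the floxed cells. It was 4.99-fold lower (log2 change -2.32 ± 0.26 SE, adjusted p = 8.55e-05).

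Hypoxia response genes had the largest differences in footprints. Bnip3 footprints stood at 953, 1241, 978 and 1063 in the tet cells and 68.3, 59.4, 61.3 and 65.1 in the floxed cells. They were 15.9-fold lower (log2 change -3.99 ± 0.24 SE, adjusted p = 3.39e-06). Slc16a3 footprints, over 367 nt, were at 129, 155, 141 and 77.0 in the tet cells and 2.43, 0, 3.17 and 5.07 in the floxed cells, on 8, 0, 3 and 4 reads in the latter. They were 53.3-fold lower in the untreated floxed cells (edgeR, log2 change -5.74 ± 0.43 SE, adjusted p = 9.89e-06). Car9 had 7 and 20 footprint reads in untreated KH2 and MSI1 cells and 0 in untreated C1 and C4 cells, so it was at least 26.5-fold higher in the tet cells at a floor of 3 counts over both floxed libraries. Pdk1 was 10.1-fold lower (log2 change -3.33 ± 0.29 SE, adjusted p = 1.87e-05), and Pfkl 9.46-fold lower (log2 change -3.24 ± 0.23 SE, adjusted p = 8.85e-06). Vegfa footprints, over 49 nt, stood at 1880.4, 1867, 848 and 938 in the tet cells and 13.7, 93.9, 15.8 and 114 in the floxed cells, on 6, 14, 2 and 12 reads in the latter. The untreated floxed cells were 96.1-fold lower (log2 change -6.59 ± 0.55 SE, adjusted p = 1.65e-05), or at -5.97 without KH2. Among the other hypoxia response genes, Ndrg1 footprints, over 99 nt, were at 95.9, 192, 123 and 71.4 in the tet cells and 4.51, 26.6, 3.92 and 0 in the floxed cells. The latter rested on 4, 8, 1 and 0 reads. Ndrg1 was 25.6-fold lower in the untreated floxed cells (edgeR, log2 change -4.68 ± 0.77 SE, adjusted p = 0.000852). Like Car9 and Vegfa, it reached 1 CPM in fewer than 2 untreated floxed libraries, so these genes passed the filter only through their tet values. Ankrd37 had 8 and 6 reads in untreated C1 and C4 cells and was 8.71-fold lower (log2 change -3.12 ± 0.74 SE, adjusted p = 0.00771), or at -2.29 without C1. Hk2 footprints stood at 53.4, 48.8, 37.7 and 36.8 in the tet cells and 7.77, 13.1, 14.9 and 14.3 in the floxed cells. Slc2a3 footprints, over 93 nt, were at 255, 241, 252 and 203 in the tet cells and 67.2, 35.3, 50.1 and 30.0 in the floxed cells, on 56, 10, 12 and 6 reads in the latter. Neither Hk2 nor Slc2a3 overlapped between tet and floxed libraries. The 2 that rose were Slc16a1, 2.51-fold higher (log2 change 1.33 ± 0.22 SE, adjusted p = 0.00097), and Pfkfb3, 1.85-fold higher (log2 change 0.89 ± 0.25 SE, adjusted p = 0.0205), which lost its call without KH2 or MSI1 (0.83 and 0.96). Slc16a1 footprints were at 46.8, 48.9, 50.4 and 42.1 in the tet cells and 145, 121, 118 and 116 in the floxed cells, every floxed value above every tet value. Adm, Tpi1, Kdm3a, Gpi1, Bnip3l, Egln3, Pkm2 and P4ha1 also fell, with log2 changes from -2.92 to -1.21, of which P4ha1 turned to 0.29 on the scale of the deposited RPKM. Neural stem cell markers were lower in floxed footprints in 6 of 11 genes and higher in 4 (median log2 change -1.49), and astrocyte markers higher in 3 of 4 (2.59), and their part in the result was not tested. Of 30 members tested in both assays, 21 were lower and 2 higher in both, and all 30 had the same sign. These counts were not made over all genes, so they are not read as particular to the members. Hif1a footprints (log2 change 0.31 ± 0.29 SE, adjusted p = 0.449) did not pass, nor did those of Hk1, Pfkp, Ldhb, Epas1, Egln1 and Eno2. Without C1, C4, KH2 or MSI1 cells, 27, 31, 24 and 22 members passed. Beside Gapdh and Pfkfb3, the members still tested that lost the call were Aldoc without C1, KH2 or MSI1 (-0.48, -0.60 and -0.71) and, without MSI1, Pfkm (-0.75) and Aldoa (-0.85). On the scale of the deposited RPKM 0 members passed, with 53 of 12097 genes called and 1883 at an unadjusted p under 0.05. The counted share of the reads behind the RPKM was 7.46 to 32.06% in the 8 Ribo libraries. It was 32.06 and 10.77% in untreated KH2 and MSI1 cells and 28.55 and 7.53% in untreated C1 and C4 cells, and its part in the result was not tested.

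Translational efficiency (TE), the footprint level over the mRNA level, was set against the median gene of each line for the 12195 genes whose counted exons matched between assays. Of 17 such members, 12 had more than 20 reads in all 8 untreated libraries, among 2514 genes. Of these, 6 lay above the median gene and 6 below it. Bnip3l, also a mitophagy receptor, had a log2 relative TE of 3.90, 3.82, 4.03 and 4.13 in KH2, MSI1, C1 and C4 cells, a mean of 3.97 ± 0.14 (SD, n = 4) and the 98.8 percentile. Bnip3 had 2.26, 2.61, 3.84 and 4.00, lower in the tet cells than in the floxed ones, a difference that was not tested. Slc16a1 followed with 0.76 ± 0.19 and Adm with 0.46 ± 0.45. At the other end Egln1 had -1.30 ± 1.10, a value that spread widely between lines, and Kdm3a -0.48 ± 0.31. Pfkl, Pfkm, Aldoc, Egln3, P4ha1 and Gpi1 lay between -0.21 and 0.44. No TE is given for the other 24 members, among them Aldoa and Hk1, whose footprints were counted over 212 and 48 nt against 703 and 2014 nt of mRNA. Copies of several glycolytic genes elsewhere in the genome, and of other members where they exist, may also take or lend reads in either assay, which was not tested.

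Dox induces the Musashi cDNA in MSI1 and MSI2 cells, and KH2 cells, which carry none, serve as a control for Dox itself. Within MSI1 or MSI2 cells alone, effects of Dox and of the cDNA cannot be told apart. Over the 3 tet lines of E12.5, 0 of 31 members passed (edgeR, 6 at an unadjusted p under 0.05, DESeq2 1), while 0.451% of 11969 genes did. Members' log2 changes ran from -0.51 to 0.35. Ndrg1 came nearest (log2 change -0.51 ± 0.11 SE, adjusted p = 0.0586), and was the 1 gene DESeq2 called. Its mRNA went from 129 to 104 in KH2 cells, from 104 to 53.7 in MSI1 cells and from 181 to 143 in MSI2 cells. Without KH2 the lines MSI1 and MSI2 gave 3 lower members, Ndrg1, Slc16a3 and Slc2a3, and without MSI2 the other 2 lines gave Ndrg1. In MSI1 cells at both stages, 3 of 31 members passed, all lower, against 3.6% of 11938 genes in either direction. Slc16a3 went from 224 to 171 at E12.5 and from 4.03 to 1.01 at E13.5. Its log2 change was -0.97 ± 0.17 SE (adjusted p = 8.22e-06). This SE comes from a spread pooled over genes and leaves out the unequal falls at E12.5 and E13.5. Slc2a3 went from 154 to 95.8 and from 19.9 to 12.54, 1.60-fold lower (log2 change -0.67 ± 0.16 SE, adjusted p = 0.00219). Slc16a1 went from 59.1 to 46.6 and from 71.2 to 43.4, 1.45-fold lower (log2 change -0.54 ± 0.16 SE, adjusted p = 0.028). All 3 are membrane transporters of glucose, lactate or pyruvate. Scaled to the reads behind the RPKM, Slc16a3 and Slc2a3 passed. DESeq2 called Slc2a3 alone, and 0 members passed without stage as a block. The difference between the MSI1 and the KH2 response was tested itself, and 0 of 31 members passed (edgeR, 5 at an unadjusted p under 0.05, DESeq2 0), with 0.0737% of 12215 genes called. The nearest was again Slc16a3 (log2 change -1.06 ± 0.28 SE, adjusted p = 0.121).

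Single pairs of treated and untreated libraries, without repeats, were read by a limit of 1.5-fold on RPKM with 0.5 added. In KH2 cells 0 of 31 members passed it, beside 0.944% of all genes. In MSI1 cells of E12.5 it was passed by 3 of 31 members and 3.38% of genes. These were Car9, with a log2 change and 95% counting interval of -0.97 (-1.29 to -0.64), Ndrg1 with -0.95 (-1.14 to -0.76) and Slc2a3 with -0.68 (-0.78 to -0.57). In KH2 cells Ndrg1 changed by -0.35 (-0.47 to -0.23) and Car9 by -0.0037 (-0.21 to 0.20). In MSI2 cells 0 of 29 members and 3.08% of genes passed, and Slc2a3 was at -0.53 (-0.60 to -0.46). In MSI1 cells of E13.5 it was 5 of 26 members and 8.22% of genes. There Bnip3 changed by -0.92 (-1.22 to -0.61), Vegfa by -0.82 (-1.11 to -0.52), Egln3 by -0.72 (-0.94 to -0.49) and Slc16a1 by -0.63 (-0.70 to -0.57), all downwards, whereas Bnip3l changed by 0.72 (0.48 to 0.96). Slc16a3 at E13.5, under the RPKM minimum, changed by -1.92 (-2.31 to -1.53) on 63 and 305 reads. The counting intervals leave out the variation between cultures.

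**Figure D4:**
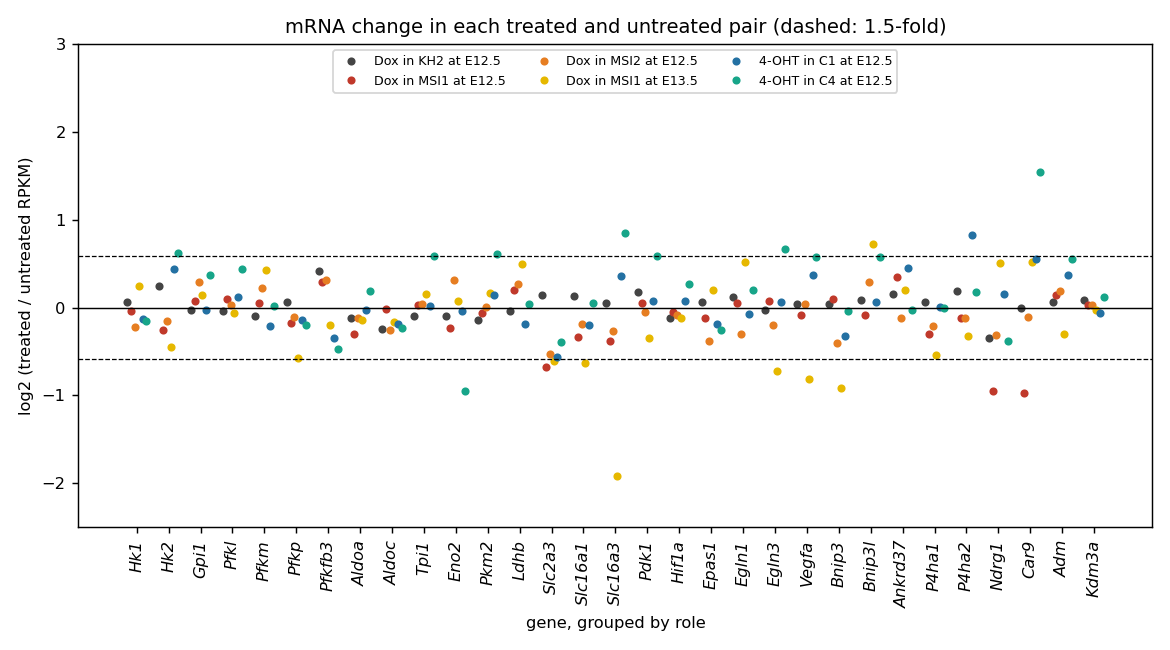
Each point is the log2 ratio of treated to untreated RPKM of a member with RNA reads, coloured by pair, with dashed lines at 1.5-fold. Most points lie between the dashed lines, with Slc16a3 in MSI1 cells of E13.5 the lowest and Car9 in C4 cells the highest, both under the RPKM minimum.

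4-OHT removes the floxed Musashi alleles only where CreER is present, so C1 cells show its effect without Cre. Over C1 and C4 cells, 3 of 30 members passed (edgeR), 1 higher and 2 lower, against 5.5% of 11626 genes. Hk2 went from 10.9 to 14.8 in C1 and from 14.6 to 21.4 in C4 cells, 1.41-fold higher (log2 change 0.50 ± 0.09 SE, adjusted p = 0.0153). Slc2a3 went from 50.4 to 34.1 and from 25.6 to 18.7, 1.43-fold lower (log2 change -0.51 ± 0.08 SE, adjusted p = 0.0118). Pfkfb3 went from 76.9 to 60.5 and from 77.9 to 53.7, 1.36-fold lower (log2 change -0.44 ± 0.08 SE, adjusted p = 0.0178). All 3 moved the same way in the Cre-less line as in C4, and 0 passed without line as a block. No difference between the lines was tested, as each had 1 pair. In C1 cells 0 of 27 members and 1.43% of genes passed the 1.5-fold limit. In C4 cells 4 of 28 members and 5.97% of genes did. Egln3 changed by 0.67 (0.57 to 0.77), Pkm2 by 0.61 (0.58 to 0.63) and Tpi1 by 0.59 (0.55 to 0.63), and Eno2 by -0.95 (-1.19 to -0.72). In C1 cells the same genes were at 0.06 (-0.03 to 0.15), 0.15 (0.13 to 0.17), 0.02 (-0.03 to 0.06) and -0.04 (-0.26 to 0.18).

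Neither treatment gave a member a change in footprints or TE that passed. For Dox, 0 of 36 members passed in footprints (edgeR, 0 at an unadjusted p under 0.05, DESeq2 0) and 0 of 31 in TE (0 and 0), while 0.633% and 0.0791% of all genes did. For 4-OHT, 0 of 33 passed in footprints (4 at an unadjusted p under 0.05, DESeq2 0), beside 0.934% of genes, and 0 of 28 in TE (2 and 0), beside 0.0% of 10490 genes (934 at an unadjusted p under 0.05). Eno1 footprints came nearest under 4-OHT (log2 change 0.51 ± 0.16 SE, adjusted p = 0.266). At the limit of 3-fold in single pairs, TE of 1 of 28 members passed in KH2 cells, beside 1.1% of genes. It was Car9, at 1.69 (0.46 to 2.92) on 24 and 7 footprint reads. In MSI1 cells 0 of 25 members and 1.29% of genes passed, and in C4 cells 0 of 18 and 2.6%. In C1 cells 9 of 25 members and 38.5% of genes did, and there the median TE of all genes shifted by -1.46 and that of the members by -1.49. Centred on the median of all genes, these 9 no longer passed, and Egln1 and Vegfa did, upwards, Vegfa on 14 and 6 footprint reads. The share of all genes that passed when centred is not given here.

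Genes of the same pathways outside the 36 were counted in lists, to be read beside the shares of all genes, 25.2% lower and 25.6% higher at E13.5, 33.3% and 33.0% in floxed mRNA, and 15.5% and 16.1% in floxed footprints. Of other genes of the HIF pathway and its targets, 23 of 34 were lower and 5 higher at E13.5, 24 of 37 were lower and 8 higher in floxed cells, and 17 of 41 were lower and 6 higher in the footprints of floxed cells. Loxl2, a lysyl oxidase, fell in all 3, with log2 changes of -5.56, -4.94 and -4.55 (SE 0.14, 0.22 and 0.34). Car12, another carbonic anhydrase, had a log2 change of -3.17 ± 0.31 SE, adjusted p = 1.98e-05, at E13.5 and of -4.81 ± 0.40 SE, adjusted p = 0.000113, in floxed cells. Against this direction, Hmox1, heme oxygenase, changed by 1.38 ± 0.19 SE, adjusted p = 0.00022, at E13.5. Among other genes of glycolysis and glucose entry 9 of 22 were lower and 4 higher at E13.5 and 12 of 22 were lower and 4 higher in floxed cells. In the footprints of floxed cells 4 of 20 genes of this list were lower and 3 higher (median log2 change 0.00871). Slc2a1, the glucose transporter GLUT1, changed by -2.39 ± 0.12 SE, adjusted p = 1.36e-07, at E13.5. Genes of pyruvate oxidation and the TCA cycle were counted likewise, and 4 of 24 were lower and 7 higher at E13.5 and 10 of 24 were lower and 5 higher in floxed cells. In the footprints of floxed cells 5 of 27 were lower and 7 higher. Kinases that inhibit pyruvate dehydrogenase, Pdk2, Pdk3 and Pdk4, were at -1.07, -1.59 and -1.32 for stage and -2.13, -1.17 and -3.44 for line. With Dox in MSI1 cells, Slc2a1 changed by 0.66 ± 0.15 SE, adjusted p = 0.00169, the opposite sign to Slc2a3. With 4-OHT, 4 of 36 were lower and 2 higher among other HIF pathway genes, Slc2a1 changing by -0.37 ± 0.08 SE, adjusted p = 0.032.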

How the data were processed

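Mouse NSCs were measured by RNA-Seq in 14 libraries and by Ribo-Seq in 8. The authors deposited a raw read count and an RPKM per gene over constitutive coding exons. The build is mm9, and the submitters' notes name Bowtie and TopHat without versions or settings. Columns of all samples were used. Technical replicates were summed. Counts were tested with edgeR 4.0.16 (TMM, genes kept at 1 CPM or more in 2 or more libraries, quasi-likelihood test, Benjamini-Hochberg over all genes, threshold 0.05) with line or stage as a block where groups shared them, and the TE test was the interaction of assay and treatment. Single pairs used deposited RPKM values, with 0.5 added for mRNA calls at 1.5-fold (mean RPKM of at least 1). TE was called at 3-fold where each of the 4 libraries had over 5 reads and the mRNA moved by less than 1.5-fold. Counting intervals (95%, delta method) cover counting error only. Depth limits genes with few reads, and the reads are given beside several of them.

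Alternatives were DESeq2 1.42.0, upper-quartile scaling, no filter, no block, each line left out, each technical replicate alone, other pseudocounts, limits and centring. Scaling to the reads behind the RPKM was added after seeing the data. Only the edgeR fits were tried on simulated counts, with a single spread for all genes that was under that of the footprint tests. The other steps were not simulated. Named genes were the members past the threshold in each test, members past the limit in single pairs, a fixed set of members with key roles, and genes of the other lists among the 3 largest changes in either direction. Members and lists were chosen with earlier results of these data known. P-values measure only the spread between the lines or stages used as repeats, which edgeR shares over genes. For Dox in MSI1 cells, for its difference from KH2 and for Dox in footprints that spread was wholly pooled over genes. A gene's own spread between stages or lines did not enter those p-values.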

Additional observations from a re-analysis of the deposited data

How the results depend on the processing

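Apart from the scale of the deposited RPKM, the count of members that passed the test of stage stayed at 24 or 25, and the count of the mRNA test of lines ranged from 23 to 29 without a line. In footprints it ranged from 22 to 31 without a line and went from 28 to 0 on the scale of the deposited RPKM. On that scale the log2 change turned to higher for Hk1 (0.33), Pfkm (0.62) in the test of stage, for Hk1 (0.44), Aldoc (0.68), Epas1 (0.35) in the mRNA of lines and for Pfkm (0.51), Aldoa (0.48), Aldoc (0.72), Gapdh (0.089), Ldha (0.27), P4ha1 (0.29) in the footprints of lines. The cause was not tested beyond the shift of all genes given above. In that scaling 31 members passed for stage and 29 for the mRNA of lines. Shares of all genes under the alternatives of this section are not given here. For Dox over 3 lines, where 0 passed, DESeq2 gave 1, no filter gave 3, and leaving out a line gave 0 to 3. For Dox in MSI1 cells, where 3 passed, DESeq2 gave 1, no block 0, and 1 technical replicate alone 3 or 4. For 4-OHT in mRNA, where 3 passed, no filter gave 10 and no block 0. Tests with 2 libraries a side and a block leave no residual degrees of freedom when a line is left out, so that alternative was not run there. In single pairs the mRNA counts at a 2-fold limit were 0 in MSI1 cells of both stages and in C4 cells. A pseudocount of 2 gave 1 for MSI1 cells of E13.5, and centring gave 1 for C4 cells. TE counts in KH2 cells were 0 with more than 20 reads, 0 when centred and 2 at 2-fold, in C1 cells 5, 2 and 22, and in C4 cells 2 at 2-fold. Of the other counts of members under an alternative, 95 stayed within 1.5 times. Line or stage served as the block that pairs treated with untreated libraries. A block by replicate number could not be fitted, because the labels number technical replicates only. Few reads limit Car9, Hk1, P4ha2, Eno2, Ankrd37, Ndrg1, Slc16a3, Vegfa and Slc2a3 in footprints.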

Other observations

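Between the 3 tet libraries of E13.5 and the 4 floxed libraries, which share no library with each other, the mRNA ranges of 15 members overlapped, 11 lay lower at E13.5 and 5 lay higher, without a test. The share of all genes whose ranges do not overlap was not counted, so these counts are not read as particular to the members. Lower at E13.5 were among others Ankrd37 (1.18, 1.20 and 1.33 against 5.47, 7.50, 7.20 and 6.77 scaled RPKM), Egln3 and Adm. Higher at E13.5 were Pfkm (230.0, 204 and 258 against 108, 93.9, 99.5 and 96.3), the phosphofructokinase subunit of muscle, together with Aldoc, Pkm2, Epas1 and Kdm3a.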
